A study of Caenorhabditis elegans with 205 samples.

Results

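AVG is an interneuron of Caenorhabditis elegans whose cell body lies at the front end of the ventral nerve cord. Its members here were the count columns whose name is AVGr plus a number, which gave 3 libraries, AVGr43, AVGr44 and AVGr45. The series holds 180 libraries of 46 classes whose labels carry the kit description, AVG among them, and 25 libraries of 7 classes whose labels do not, and AVG was set against the unweighted mean of the other 52 sorted neuron classes. Besides that contrast, AVG was compared with PVP, 4 libraries, and with AVA, 6 libraries. All groups were labelled untreated. Neurons were sorted by fluorescence into Trizol LS, and RNA was turned into libraries with the Tecan SoLo Ovation kit. PVP is among the 7 classes whose labels lack the kit description, while those of AVG and AVA carry it. Worms were grown on 8P nutrient agar with the bacterial strain NA22. The strain, the reporter that marked AVG, the stage and the sex of the worms are not given in the sources used here, so the promoter that drove the sort cannot be named. Nothing in the labels says that the libraries of a class came from separate cultures, so p-values measure the spread between libraries of a class, which may be technical. In the contrast with the other 52 classes that spread was taken over all 53 classes, and differences among the other classes did not enter it. A low p there does not show that AVG stands apart from every other class.

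AVG sends its axon back along the right side of the ventral cord before other axons grow there, and later axons use it as a track. The LIM homeobox gene lin-11 acts in the differentiation of AVG and the ETS factor gene ast-1 in axon navigation in the ventral cord, and odr-2, which encodes a Ly-6 type membrane protein, is a common AVG reporter. AVG also carries ionotropic glutamate receptors, among them the AMPA-type subunit glr-1 and the NMDA-type subunits nmr-1 and nmr-2, and has been described as cholinergic. PVP axons also help to found the ventral cord and PVP also uses lin-11, while AVA is a command interneuron of backward movement that shares glr-1 and nmr-1 with AVG.

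The AVG libraries were shallow, with 2258474 counts in AVGr43, 1238641 in AVGr44 and 1382812 in AVGr45, against a median of 4765660.5 over the other libraries. A count of 0 therefore allows up to 1.12, 2.68 and 2.65 counts per 1000000 counts (CPM, on TMM-scaled library sizes) in AVGr43, AVGr44 and AVGr45, taking 3 counts as the limit, and these limits cover counting error only. Ribosomal RNA genes held 35.96%, 37.4% and 35.1% of counts in AVGr43, AVGr44 and AVGr45, against a median of 29.2% in the other libraries. The 3 libraries did not stand equally close to each other. On log2(CPM + 1) values, AVGr44 and AVGr45 correlated at r = 0.919 and AVGr43 with AVGr45 at r = 0.879, and the library most like AVGr43 was a library of another class, RIMr224, at r = 0.928. The mean of the RIM class stood lower, at r = 0.881 with AVGr43. Counts were found for 16915, 12957 and 11787 genes in AVGr43, AVGr44 and AVGr45, against a median of 17851 in the other libraries. Of 784 genes that were called higher in AVG with a mean of at least 10 CPM, 671 had their lowest AVG value in AVGr43 and 616 their highest in AVGr45, and the median ratio of AVGr45 to AVGr43 was 2.48. These AVG differences between libraries run beside most of the values that follow, and their part in the results was not tested.

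The AVG label was checked against 9 genes known for AVG. Of these, 6 were called higher in AVG than in the mean of the other classes by edgeR's quasi-likelihood test at a Benjamini-Hochberg adjusted p under 0.05 over all 20427 genes tested, where 5.68% of genes were called higher and 2.59% lower. These were lin-11, odr-2, ast-1, glr-1, nmr-1 and nmr-2. With all other libraries taken as 1 group, 3 of the 9 were called. lin-11 and ast-1 were not among them (edgeR adjusted p = 0.136 and 0.493). The other 3, the acetylcholine genes unc-17, cha-1 and cho-1, did not pass the test and lay below the median class in AVGr44 and AVGr45. Summed over the 9 genes, AVGr43, AVGr44 and AVGr45 held 848, 1919 and 2923 CPM, and the AVG mean of 1897 ± 1037 CPM (SD, n = 3) lay above all 52 other class means, whose median was 176.2 CPM and whose highest was AIN at 1692 CPM. The highest single library of another class held 2591 CPM, above AVGr43 and AVGr44, so the sum did not set each AVG library apart. Of the AVG mean, nmr-2 alone held 705 CPM.

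**Figure D1:**
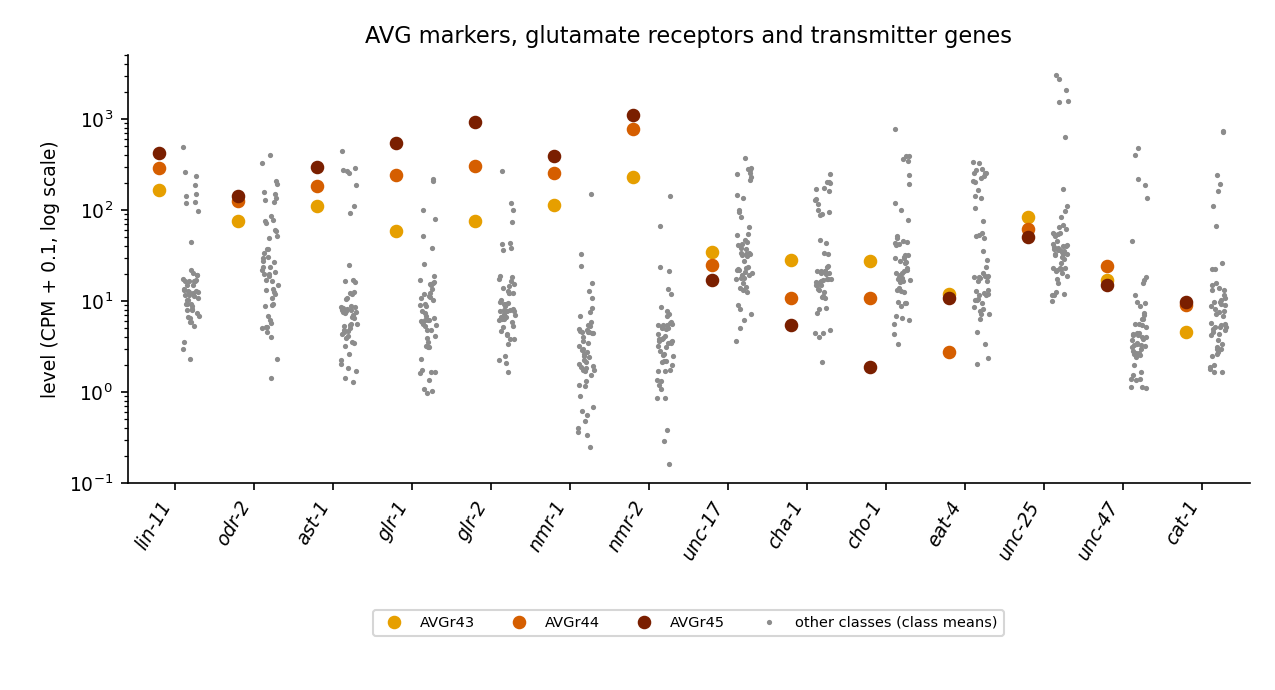
Level in CPM on a log axis of the AVG marker genes, glr-2 and genes for other transmitters, with the 3 AVG libraries (large points) left of the 52 other class means (small points) for each gene; 0.1 CPM was added so that zeros can be drawn. All AVG points of nmr-2 lie above every other class mean, while those of unc-17 and cha-1 lie within the spread of the other class means and cho-1 in AVGr45, at 1.77 CPM, lies below all of them.

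Lin-11 (chromosome I, 10248288 to 10255327, WBcel235) was at 164.7 CPM in AVGr43, 290 CPM in AVGr44 and 425 CPM in AVGr45. The median of the other class means was 12.6 CPM. All AVG libraries lay above that median, but 18 libraries of other classes lay at or above AVGr43. The contrast gave a log2 fold change of 4.08 with an adjusted p of 1.03e-31 in edgeR, and 4.05 ± 0.36 (SE) in limma-voom. Against all other libraries as 1 group it was 2.62, and the call was lost (edgeR adjusted p = 0.136). AVG ranked behind ADL, a sensory neuron, which averaged 496 ± 320 CPM (SD, n = 4) against 293 ± 130 CPM in AVG (SD, n = 3). ASG at 259 ± 80.4 CPM, RIM at 239 ± 127 CPM and PVP at 187.6 ± 102 CPM came next, followed by RIC at 150.7 ± 66.99 CPM, AVA at 141.4 ± 35.7 CPM and PVQ at 120.9 ± 89.9 CPM. The libraries of each of these 7 classes overlapped those of AVG, and those of AVE at 119.4 ± 17.8 CPM and VC at 97.2 ± 25.7 CPM did not. The marker therefore did not single AVG out among the 53 classes by its level alone.

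**Figure D2:**
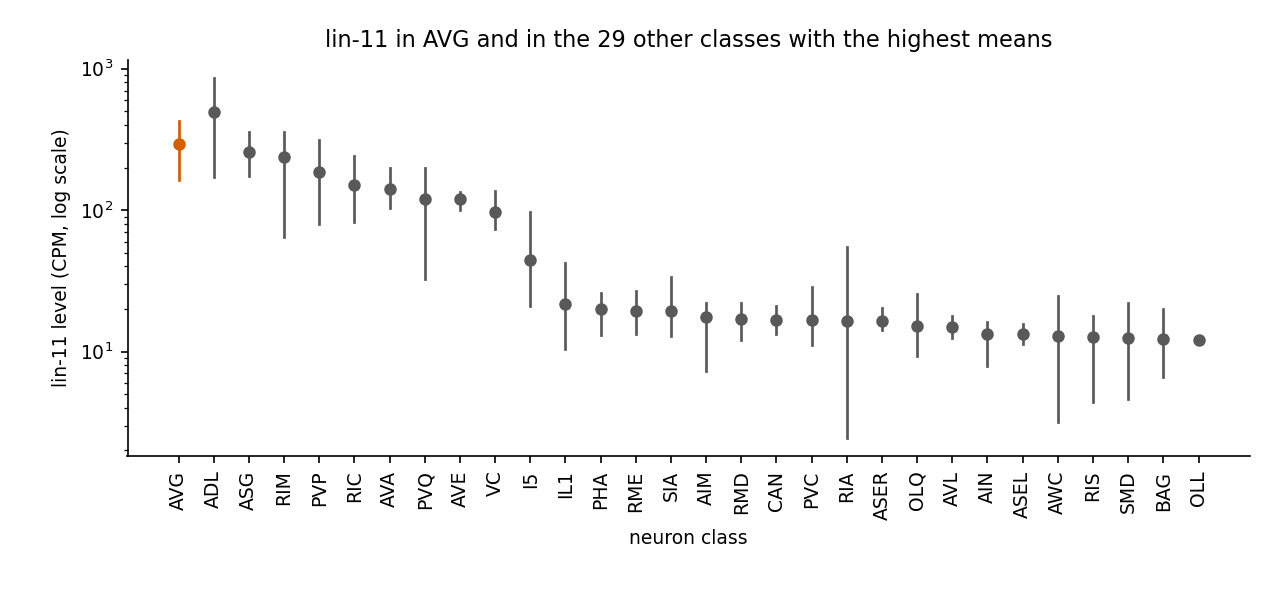
lin-11 level in CPM on a log axis in AVG, drawn first, and in the other classes with the highest means, in falling order; points are class means and lines run from the lowest to the highest library. ADL is the class whose mean lies above the AVG mean of 293 CPM, and the AVG libraries span 164.7 to 425 CPM.

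Among the functional lists, genes of glutamate receptors had the highest share called higher in AVG. Of 23 glutamate receptor genes and accessory subunits tested, 8 were called higher in AVG and 3 lower by edgeR, a share of 34.8% higher. nmr-2, an NMDA-type subunit on chromosome V at 15006341 to 15011660, was at 231.7, 778 and 1105 CPM in AVGr43, AVGr44 and AVGr45, against a class median of 3.50 CPM. Each AVG library was above every library of the other classes, and RIM came next with 144.2 ± 61.6 CPM (SD, n = 4). Its log2 fold change was 7.69 (edgeR adjusted p = 6.4e-60), and 7.55 ± 0.38 (SE) in limma-voom. Its partner subunit nmr-1 was at 114, 256 and 388 CPM in the AVG libraries, against a class median of 2.72 CPM and 151.4 ± 71.1 CPM in RIM. The edgeR log2 fold change of nmr-1 was 6.56 (adjusted p = 7.4e-43), and 3 libraries of other classes lay at or above AVGr43.

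The AMPA-type subunits followed the same pattern with more overlap. glr-2 was at 74.8, 304 and 938 CPM in the AVG libraries, against a class median of 7.99 CPM and 269 CPM in AVA, the next class. glr-1 was at 59.1, 240 and 539 CPM in AVG, against a class median of 6.55 CPM, 220 CPM in RMD and 206.01 CPM in RIM. Log2 fold changes were 5.43 for glr-2 and 5.17 for glr-1 (edgeR adjusted p = 6.23e-47 and 2.9e-35), and for each gene 18 libraries of other classes lay at or above AVGr43. The accessory genes sol-1, sol-2 and stg-2 and the metabotropic receptor gene mgl-3 were the other members called higher. The glutamate-gated chloride channel genes avr-15, avr-14 and glc-4 were called lower by edgeR. avr-15 was at 2.62, 0 and 1.77 CPM in AVG, against a class median of 5.30 CPM (log2 fold change -1.97, edgeR adjusted p = 0.0489), and its call was lost when any of the AVG libraries was left out. The lower calls of the list numbered 1 without AVGr44, without AVGr45 and in limma-voom. In these bulk libraries a lower number of cells of a type and less RNA in each cell cannot be told apart. nmr-1, nmr-2, glr-1, glr-2, avr-15 and ast-1 overlap genes on the other strand, and the treatment of strand is not given in the sources used here.

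Genes of the acetylcholine pathway gave a different result. unc-17, the vesicular acetylcholine transporter, was at 34.1, 25.03 and 16.8 CPM in AVGr43, AVGr44 and AVGr45, against a class median of 32.3 CPM, and 29 of 52 class means were above AVG. cha-1, choline acetyltransferase, was at 28.4, 10.7 and 5.31 CPM, against a class median of 20.3 CPM, and 37 class means were above AVG. cho-1, the choline transporter, was at 27.7, 10.7 and 1.77 CPM, against a class median of 22.3 CPM. Of these genes AVGr43 held the most and AVGr45 the least, opposite to the order in lin-11 and the receptors. Log2 fold changes were -0.52 for unc-17, -0.78 for cha-1 and -1.06 for cho-1, with edgeR adjusted p of 0.822, 0.598 and 0.359. unc-17 and cha-1 share exons on the same strand, so their counts are uncertain. Of 8 genes of the pathway, 1 (12.5%) was called higher, beside 5.68% of all genes tested. This was ric-3, a chaperone for acetylcholine receptors, at 10.1, 42.9 and 99.0 CPM in AVG against a class median of 18.04 CPM. Its edgeR adjusted p was 0.0198, limma-voom did not call it, and the call was lost without AVGr44 and without AVGr45.

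Of 13 genes for other transmitters tested, 1 (7.69%) was called higher in AVG, beside 5.68% of all genes tested. This was unc-47, the vesicular GABA transporter, at 16.8, 24.1 and 15.03 CPM in the AVG libraries, against a class median of 4.04 CPM. Of the other class means, 6 were above AVG, led by DVB at 478 ± 184.97 CPM. The log2 fold change was 1.66 (edgeR adjusted p = 0.00223), and 1.77 ± 0.50 (SE) in limma-voom. The call was lost without AVGr44, and against the other libraries taken as 1 group the log2 fold change was -0.62. unc-25, the GABA-synthesis enzyme, was at 84.2, 61.7 and 50.4 CPM in AVG, against a class median of 36.7 CPM, and was not called (edgeR adjusted p = 0.962). Per transcript length, unc-25 averaged 52.6 ± 27.4 TPM and unc-17 18.3 ± 10.7 TPM in AVG (SD, n = 3). eat-4, the vesicular glutamate transporter, was at 11.98, 2.68 and 10.6 CPM in AVG against a class median of 18.5 CPM (edgeR adjusted p = 0.0714).

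Of 36 genes for acetylcholine receptors tested, 11 (30.6%) were called higher in AVG and 2 lower by edgeR, and limma-voom called 8 of the 11. acr-5 was at 114.5, 308 and 434 CPM in AVG, against a class median of 2.89 CPM, and DVC came next at 215.2 ± 165.2 CPM. acr-24 was at 113, 260 and 317 CPM against a class median of 2.98 CPM. acr-20 was at 90.9, 176.99 and 210 CPM against 3.80 CPM, and CEP, at 307 CPM, was above AVG. The log2 fold changes of acr-5, acr-24, acr-20 and acr-15, which encode nicotinic receptor subunits, ran from 6.30 to 4.36, with edgeR adjusted p of 8.53e-25 or less. The levamisole receptor subunit unc-29 had a count in AVGr44 only, at 0.894 CPM, against a class median of 2.65 CPM, and was called lower (edgeR adjusted p = 0.0124). Its call was lost without AVGr43 and without AVGr45. The list held 1 lower call without AVGr44 and 0 without AVGr45.

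Of 29 GABA and monoamine receptor genes, 7 were called higher by edgeR and 2 lower, and limma-voom called 4 higher and 4 lower. dop-5, which encodes a dopamine receptor-like protein, was at 105.5, 284 and 588 CPM in AVG, against a class median of 21.3 CPM (log2 fold change 3.69, edgeR adjusted p = 3.35e-19). lgc-38, a ligand-gated channel, was at 30.7, 60.8 and 102 CPM against 9.19 CPM. octr-1, an octopamine receptor, was at 17.96, 27.7 and 16.8 CPM in AVG against a class median of 4.14 CPM, and lost its call without AVGr44. gbb-1, a GABA-B receptor subunit, was at 56.5, 125 and 155.6 CPM in AVG against a class median of 35.1 CPM, and lost its call without AVGr45. Without AVGr44 or without AVGr45, 3 of the list were called higher and 1 lower, and without AVGr43 6 were called lower. The serotonin receptor ser-4 was at 5.24, 0 and 0.884 CPM in AVG, against a class median of 23.4 CPM, and lower than all 52 class means (log2 fold change -3.45, edgeR adjusted p = 4.41e-05).

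Of 150 neuropeptide precursor genes, 5 did not pass the filter on low counts. edgeR called 10 of the rest (6.90%) higher and 23 (15.9%) lower. limma-voom called the same 10 higher, and it called 10 lower, of which 6 were among the 23. nlp-101 was at 257, 429 and 712 CPM in AVG against a class median of 13.1 CPM, with PVP, AIM and 1 further class above AVG. The insulin-like peptide gene ins-17 was at 655, 580 and 337 CPM in AVG against a class median of 21.4 CPM, and SMB was above AVG at 2801 ± 545 CPM. nlp-79 was at 62.5, 59.9 and 66.3 CPM against 2.86 CPM, and varied little between the AVG libraries. flp-7, an FMRFamide-like peptide gene, was at 273, 446 and 582 CPM in AVG against a class median of 16.7 CPM. Log2 fold changes of these 4 ran from 4.89 to 4.18, with edgeR adjusted p of 2.27e-26 or less. All 4 lost the call with all other libraries as 1 group (edgeR adjusted p of 0.303 to 0.528). Per length, the precursors with the highest level in AVG were flp-22 at 2088 ± 215.5 TPM, flp-14 at 1680 ± 413 TPM, ins-17 at 1291 ± 669 TPM and nlp-101 at 1281 ± 448 TPM. ins-29 was the member with the largest fall called by both tools, at 0, 0.894 and 0 CPM in AVG against 3.04 CPM, and lost its call without AVGr43 and without AVGr45. Of the precursors, 28 were called lower without AVGr43, 3 without AVGr44 and 1 without AVGr45.

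Of the neuropeptide receptor genes tested, 21 (20.4%) were called higher and 11 (10.7%) lower by edgeR. frpr-14, predicted to encode an FMRFamide peptide receptor, was at 315, 642 and 964 CPM in AVG, against a class median of 2.56 CPM. No other library reached it; RIM averaged 115.1 ± 65.8 CPM and the highest single library was DVCr166 at 240 CPM. The log2 fold change was 7.67 (edgeR adjusted p = 5.63e-61). frpr-1 was at 47.9, 104.6 and 125.6 CPM in AVG against a class median of 1.04 CPM, npr-13 was at 40.8, 74.2 and 84.9 CPM against 2.17 CPM, and the nematocin receptor gene ntr-2 was at 9.73, 16.98 and 38.9 CPM against 0.931 CPM. nmur-1, the neuromedin U receptor gene, was at 0 in all AVG libraries against a class median of 3.22 CPM, at least 1.495-fold lower against a limit of 3 counts in each AVG library, and lost its call when any 1 AVG library was left out. None of the 11 lower calls was left without AVGr44 or without AVGr45.

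Of 12 genes of peptide processing, 2 (16.7%) were called higher and 1 (8.33%) lower, beside 5.68% and 2.59% of all genes tested. kpc-1, a furin-type protease gene, was at 229, 368 and 562 CPM in AVG against a class median of 67.2 CPM, and pamn-1, which encodes an amidating enzyme, was at 64.7, 130 and 213.99 CPM against 34.8 CPM. aex-5, another protease gene of that family, was at 22.1, 4.47 and 21.2 CPM in AVG, against a class median of 203.6 CPM (log2 fold change -3.54, edgeR adjusted p = 2.52e-05), and 48 of 52 class means were above AVG. Of 25 innexin genes, which build gap junctions, 3 (12%) were called higher, beside 5.68% of all genes tested. These were inx-18 at 23.6, 50.1 and 67.2 CPM against 2.63 CPM, unc-7 at 342, 715 and 1037 CPM against 141.6 CPM, and inx-1 at 232.4, 421 and 539 CPM against 146.1 CPM. inx-1 lost its call without AVGr45.

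Among 89 homeobox genes tested, 4 were called higher and 4 lower by edgeR, shares of 4.49% each, close to the 5.68% of all genes for higher calls and above the 2.59% for lower calls. Without AVGr43 7 were called higher, without AVGr44 and AVGr45 0 and 1 were called lower, and limma-voom called 1 lower. vab-15, an Msx-type homeobox gene, was at 26.2, 60.8 and 144.1 CPM in AVG, against a class median of 0.643 CPM; 1 library of another class, PVQr235 at 87.9 CPM, lay above AVGr43. Its log2 fold change was 6.77 (edgeR adjusted p = 1.61e-38). irx-1, an Iroquois-type gene, was at 50.9, 96.5 and 217.5 CPM against 8.52 CPM, and dve-1, a SATB-related homeobox gene, was at 36.7, 128.7 and 194 CPM against 11.3 CPM; lin-11 was the fourth. Of 41 other neuronal transcription factor genes, 2 were higher and 3 lower. ast-1 was at 111.9, 184.1 and 299 CPM in AVG against a class median of 7.50 CPM (log2 fold change 4.30), below AIN at 444 CPM and 4 other class means. sem-4, a Spalt-type zinc-finger gene, was at 434, 1015 and 1480 CPM in AVG against 37.7 CPM, and DVC, at 1005 ± 656 CPM, was the 1 class whose mean lay above the AVG mean of 977 ± 524 CPM. ztf-11, a Myt1-type gene, was at 2.25, 0.894 and 0 CPM in AVG against a class median of 3.65 CPM, and lost its call without AVGr44 and without AVGr45, when none of this list was called lower.

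Of 94 genes of axon guidance and adhesion, 19 were called higher and 6 lower by edgeR, shares of 20.2% and 6.38%. limma-voom called 14 of the 19. cwn-2, a Wnt ligand, was at 23.95, 78.7 and 180 CPM in AVG against a class median of 2.75 CPM (log2 fold change 4.94, edgeR adjusted p = 8.73e-33). efn-4, an ephrin, was at 79.7, 88.5 and 205.1 CPM against 8.63 CPM, and nlg-1, neuroligin, was at 90.2, 161.8 and 175.97 CPM against 15.2 CPM. oig-4, which encodes an immunoglobulin-domain protein, had a log2 fold change of 4.08. efn-2, another ephrin, was at 5.99, 3.58 and 0.884 CPM in AVG against a class median of 20.01 CPM, and was lower (log2 fold change -2.79, edgeR adjusted p = 0.000295). The netrin gene unc-6 and its receptor genes unc-5 and unc-40, picked after their values were seen, were not called: unc-40 averaged 158.4 ± 102.8 CPM in AVG against a class median of 87.98 CPM, and unc-6 17.7 ± 7.74 CPM against 18.9 CPM. Without AVGr45, 9 genes of the list were called higher and 1 lower, and without AVGr44 2 were called lower.

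Of 114 ion channel genes, 13 were called higher and 8 lower by edgeR. tmc-1, which encodes a transmembrane channel-like protein, was at 314, 1152 and 2375 CPM in AVG, against a class median of 19.1 CPM. The next class was DVC at 198.9 ± 130 CPM, and 2 libraries of other classes lay at or above AVGr43. Its log2 fold change was 5.91 (edgeR adjusted p = 6.23e-47). del-1, a DEG/ENaC channel gene, was at 47.5, 180 and 507 CPM against 4.61 CPM, and the potassium channel gene twk-40 was at 76.7, 157.3 and 231.7 CPM against 4.87 CPM. egl-36, a Shaw-type potassium channel gene, had a log2 fold change of 2.92. kqt-1, a KCNQ-type potassium channel gene, was at 2.25, 0.894 and 0 CPM in AVG against 4.57 CPM, and its call as lower was lost when any 1 AVG library was left out. Without AVGr45, 7 members were called higher and none lower, and without AVGr44 1 was called lower.

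Read across the lists, the share called higher in AVG was above the 5.68% of all genes for receptors of glutamate, acetylcholine, GABA and monoamines and peptides and for guidance and channel genes, and near it for neuropeptide precursors (6.90%), homeobox genes (4.49%) and other neuronal transcription factors (4.88%). By edgeR, the share called lower was above the 2.59% of all genes in each of these lists. That did not hold in limma-voom, which called 1 of 94 guidance genes and 1 of 89 homeobox genes lower, beside 1.56% of all genes. The lower calls of neuropeptide receptors and of other transcription factors were all lost without AVGr44 and without AVGr45. Over these lists, each median edgeR log2 fold change lay below 0, from -1.33 for precursors to -0.06 for guidance genes, while the median over all genes tested was -0.33. In limma-voom the median was 0.02 for guidance genes and 0.08 over all genes tested. In each of these lists most members did not pass the test.

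**Figure D3:**
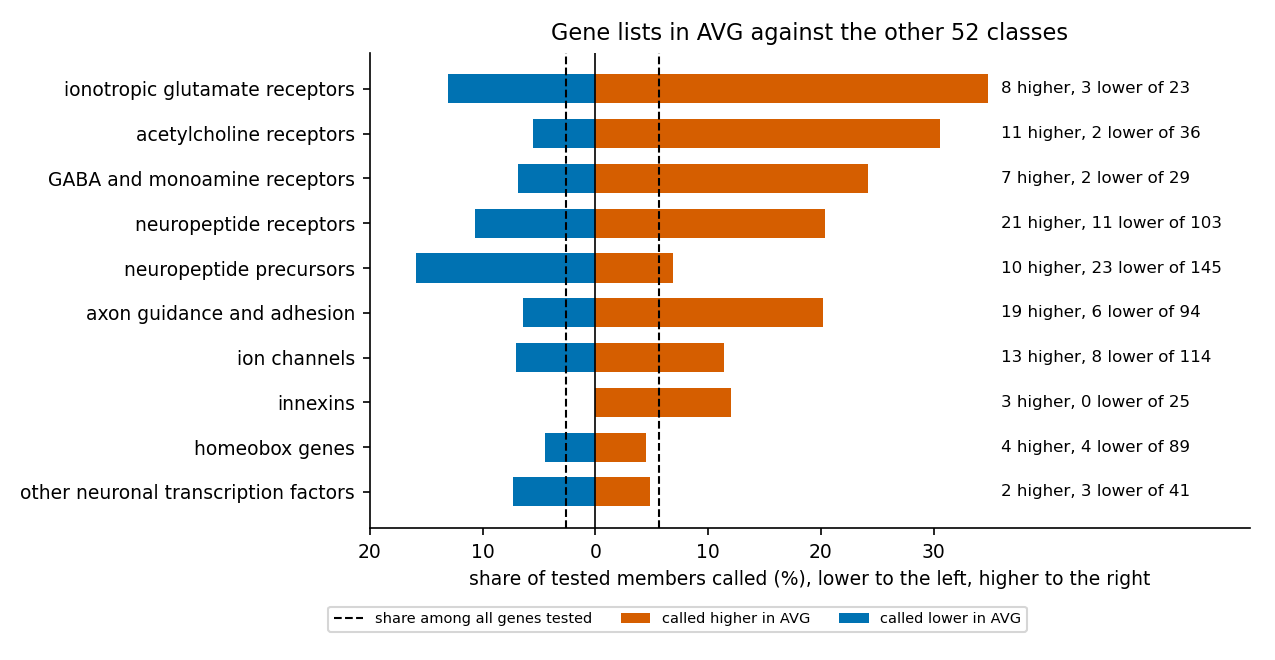
Share in percent of tested members called higher (bars to the right) and lower (bars to the left) in AVG by edgeR for 10 lists of genes, with the shares over all genes tested, 5.68% higher and 2.59% lower, as dashed lines. The glutamate receptor list, at 34.8% higher, lies farthest to the right, and the neuropeptide precursors, at 15.9% lower, farthest to the left.

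Genes in which every AVG library lay above every other library, with at least 10 CPM in each AVG library and an edgeR call, numbered 16, or 0.0783% of genes tested. All were protein-coding and all were called by both tools; 7 overlap another gene. cex-1, a gene for a calcium-binding protein of the calexcitin type on chromosome II at 5447681 to 5448634, had the highest level of these per length. It was at 2598, 2913 and 3101 CPM in AVG, a mean of 2871 ± 254 CPM (SD, n = 3), against a class median of 5.65 CPM. RIM was next at 852 ± 460 CPM, with RIMr225 at 1229 CPM, and AVE followed at 220 CPM. The log2 fold change was 8.69 (edgeR adjusted p = 2.41e-67), and 8.999 ± 0.363 (SE) in limma-voom. At 4627 ± 756 TPM, cex-1 was first among protein-coding genes in AVG, ahead of the mitochondrial genes WBGene00010964, COX3, WBGene00010965 and WBGene00000829, the translation genes eef-1A.1 and rla-0, and hsp-90, ftt-2 and hsp-1. Of these other 9 genes, hsp-90 was called higher in AVG (log2 fold change 1.07, edgeR adjusted p = 0.00597).

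The largest fold changes belonged to genes without a described role. F40G12.2 was at 58.8, 137.7 and 184.8 CPM in AVG, and the highest other library was RIAr74 at 22.7 CPM. The class median was 0.0826 CPM and 13 of the other classes held no count, so the fitted log2 fold change of 10.04 (edgeR adjusted p = 1.05e-50) depends on how such classes enter the mean. K01A6.4 was at 43.4, 168 and 224.6 CPM in AVG, against 14.2 CPM in RIAr74, the highest other library (log2 fold change 9.30). gst-31, a glutathione S-transferase gene, was at 54.6, 115.3 and 175.97 CPM in AVG against a class median of 0.803 CPM, and fbxa-84, an F-box gene, was at 13.8, 40.2 and 38.02 CPM against 0.432 CPM. T20D4.12, F59E11.7 and R107.2 had log2 fold changes of 5.99, 5.25 and 4.68. R107.2 was at 232.03, 480 and 595 CPM in AVG, above a class median of 16.03 CPM.

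Among the 16, 7 overlap another gene, and 2 of those are given here after their values were seen. pie-1, a zinc-finger gene known for repressing transcription in germline precursors, was at 395, 1042 and 1534 CPM in AVG, against a class median of 9.05 CPM and 58.1 CPM in RIAr74, the highest other library. snr-6, which overlaps it on the other strand, was at 11.98, 34.9 and 36.3 CPM in AVG. ags-3, which encodes a regulator of G proteins, was at 1772, 4143 and 7255 CPM in AVG against a class median of 49.8 CPM. AVGr43 was the lowest AVG library in 14 of the 16 genes and AVGr45 the highest in 15. Without AVGr43, 55 genes met the rule. For 3 of the 16, cex-1, nmr-2 and frpr-14, RIM was the next class, and for 4, F40G12.2, K01A6.4, pie-1 and T10G3.1, RIAr74 was the next library. With RIAr74 left out of the comparison no further gene met the rule. Leaving out a library of another class can only keep or add genes, so none of the 16 could be lost.

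**Figure D4:**
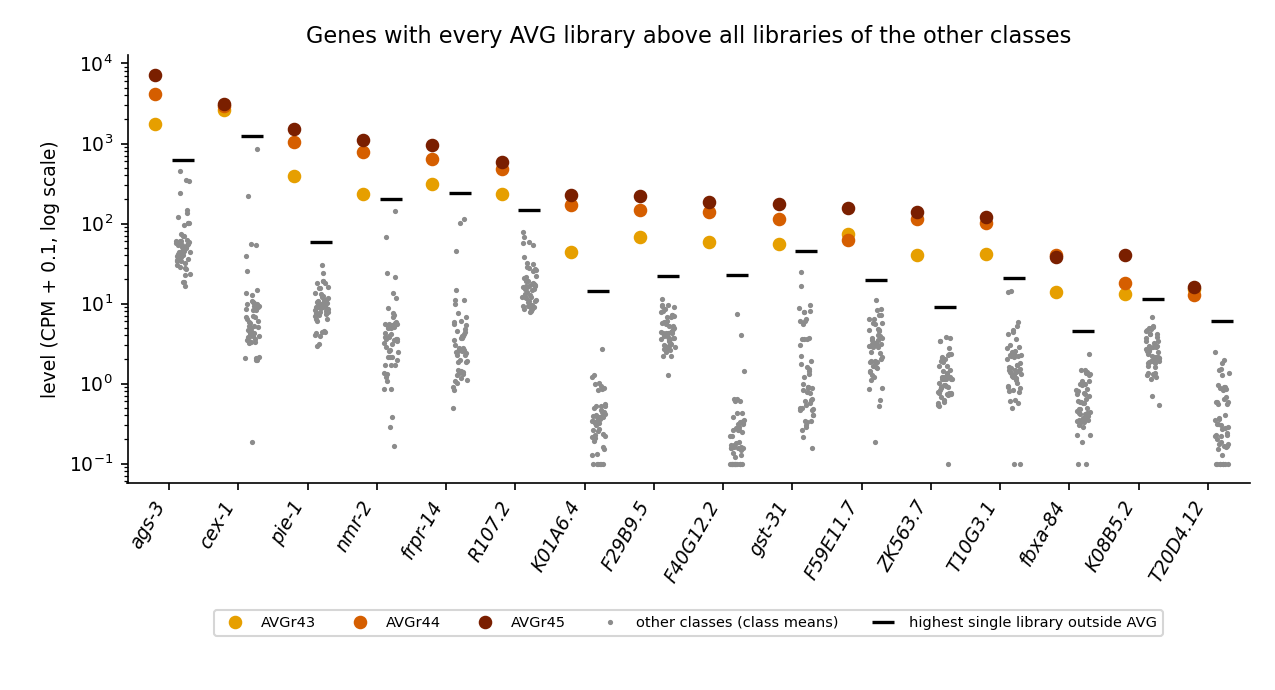
Level in CPM (plus 0.1, log axis) of the 16 genes in which the 3 AVG libraries lay above all libraries of the other classes; large points are AVG libraries, small points right of them the other class means, and the short bar the highest single library outside AVG. The AVG values of cex-1, at 2598 to 3101 CPM, lie close together, and AVGr43 is the lowest AVG point in 14 of the genes.

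Over all 20427 genes, 1160 were called higher and 529 lower in AVG by edgeR, 899 higher (4.4%) and 318 lower (1.56%) by limma-voom, and 761 higher (3.73%) and 194 lower (0.95%) by both tools. In simulated data edgeR called falls less often than rises of the same size, so higher and lower counts are not like for like. With all other libraries taken as 1 group 260 were called higher (1.27%) and 32 lower (0.157%). Leaving out AVGr45 left 655 higher, and the lower calls were 0.730% of genes tested without AVGr44 and 0.563% without AVGr45. Genes with the largest fall had almost no counts in AVG. R03H10.6, F19B10.13, hot-3 and F33E2.5 had no count in any AVG library, and spp-28, a saposin-like gene, had 1 count in AVGr43, against a class median of 3.05 CPM. Against a limit of 3 counts in each AVG library the 4 genes with no count were at least 2.78-fold, 2.75-fold, 1.67-fold and 1.04-fold lower than the median class, and higher levels were seen in particular classes, such as hot-3 in PVP at 405 CPM, F19B10.13 in AVE at 411 CPM and spp-28 in I5 at 2339 CPM. Their edgeR adjusted p ran from 0.00175 to 0.0291, and the calls of F33E2.5 alone held without each AVG library in turn.

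AVG was next compared with PVP, on counts scaled within their 7 libraries, so AVG values differ slightly from those above. The kit description stands in the labels of AVG and not in those of PVP, so that this difference and the class cannot be told apart. Of 10511 genes tested, 491 (4.67%) were called higher and 464 (4.41%) lower in AVG by edgeR's quasi-likelihood test. Without AVGr44 and without AVGr45 the higher calls were 315 and 280, and the lower calls were 2.27%, 1.24%, 1.37% and 3.20% of genes tested without AVGr43, AVGr44, AVGr45 and PVPr3. The markers that AVG and PVP are both known for did not differ past the test. lin-11 was at 161.3, 256 and 354 CPM in AVG, against 202.1, 241, 104.6 and 63.4 CPM in PVP, and the groups overlap. Its log2 fold change was 0.75 ± 0.51 (SE, edgeR adjusted p = 0.433). odr-2 had a log2 fold change of -0.03 (edgeR adjusted p = 0.988), with 270 CPM in PVPr2 and 27.3 to 63.97 CPM in the other PVP libraries. Neither p shows that the levels are alike.

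Glutamate receptor genes separated AVG from PVP. nmr-2 was at 226.9, 687 and 921 CPM in AVG, and at 0, 0, 0.199 and 0 CPM in PVPr2 to PVPr5, or 2739 counts in the AVG libraries and 2 in the PVP libraries (edgeR adjusted p = 0.000206). The ratio of summed counts over summed library sizes was 9056, with an exact 95% interval of 2504 to 74814 that covers counting error only. nmr-1 had 1030 counts in AVG and 2 in PVP, a ratio of 3405 (940 to 28157), and glr-1 and ast-1 had log2 fold changes of 8.19 ± 0.86 and 7.35 ± 0.71 (SE). cex-1 was at 2545, 2574 and 2584 CPM in AVG against 1.43 ± 1.67 CPM in PVP (SD, n = 4), a log2 fold change of 10.67 ± 1.26 (SE, edgeR adjusted p = 0.000706). F40G12.2, at 57.5 to 154.02 CPM in AVG and 0 in PVP, was at least 214.9-fold higher against a limit of 3 counts in each PVP library. Of 16 glutamate receptor genes tested 6 were higher and 1, glc-4, was lower, and of 21 acetylcholine receptor genes 8 were higher and 3 lower.

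Of 7 genes of the acetylcholine pathway tested against PVP, unc-17, cha-1 and cho-1 ran the other way and were called lower, and ace-3 was called higher. unc-17 was at 33.4, 22.1 and 14.002 CPM in AVG, against 548, 212.1, 140 and 63.4 CPM in PVP, with no overlap. Its log2 fold change was -3.36 ± 0.74 (SE, edgeR adjusted p = 0.0184). cha-1 was at 27.9, 9.48 and 4.42 CPM in AVG against 286, 213.03, 109.1 and 65.3 CPM in PVP, and cho-1 at 27.1, 9.48 and 1.47 CPM against 540, 457, 204.5 and 107 CPM. Their log2 fold changes were -3.55 and -4.63 (edgeR adjusted p = 0.0143 and 0.0108). unc-17 and cha-1 were each called in 5 of 7 fits with 1 library left out, and cho-1 in 6.

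Other genes lower in AVG than in PVP were ocr-3, a TRPV channel gene at 0 in AVG against 445 ± 200 CPM in PVP (SD, n = 4), and hot-3, a relative of odr-2, at 0 against 340 ± 272 CPM. They were at least 235-fold and 179.5-fold lower in AVG. The chemoreceptor-family gene srh-271 was at least 48.7-fold lower, and F09E5.14, at 4.399, 0 and 0 CPM in AVG against 6660 ± 5228 CPM in PVP, had a log2 fold change of -11.78 ± 1.42 (SE). Chosen after their values were seen, the homeobox gene unc-30 was at 5.86, 0 and 2.95 CPM in AVG against 734, 822, 362 and 199.5 CPM in PVP (log2 fold change -7.34, edgeR adjusted p = 0.00112), and the PDF neuropeptide gene pdf-1 was at 56.5, 8.69 and 18.4 CPM in AVG against 28790, 14263, 8692 and 3731 CPM in PVP (log2 fold change -8.93, edgeR adjusted p = 0.00119). unc-25, also outside the naming rule, was higher in AVG at 82.5, 54.5 and 42.01 CPM against 5.62 to 15.4 CPM in PVP (log2 fold change 2.66, edgeR adjusted p = 0.00643).

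**Figure D5:**
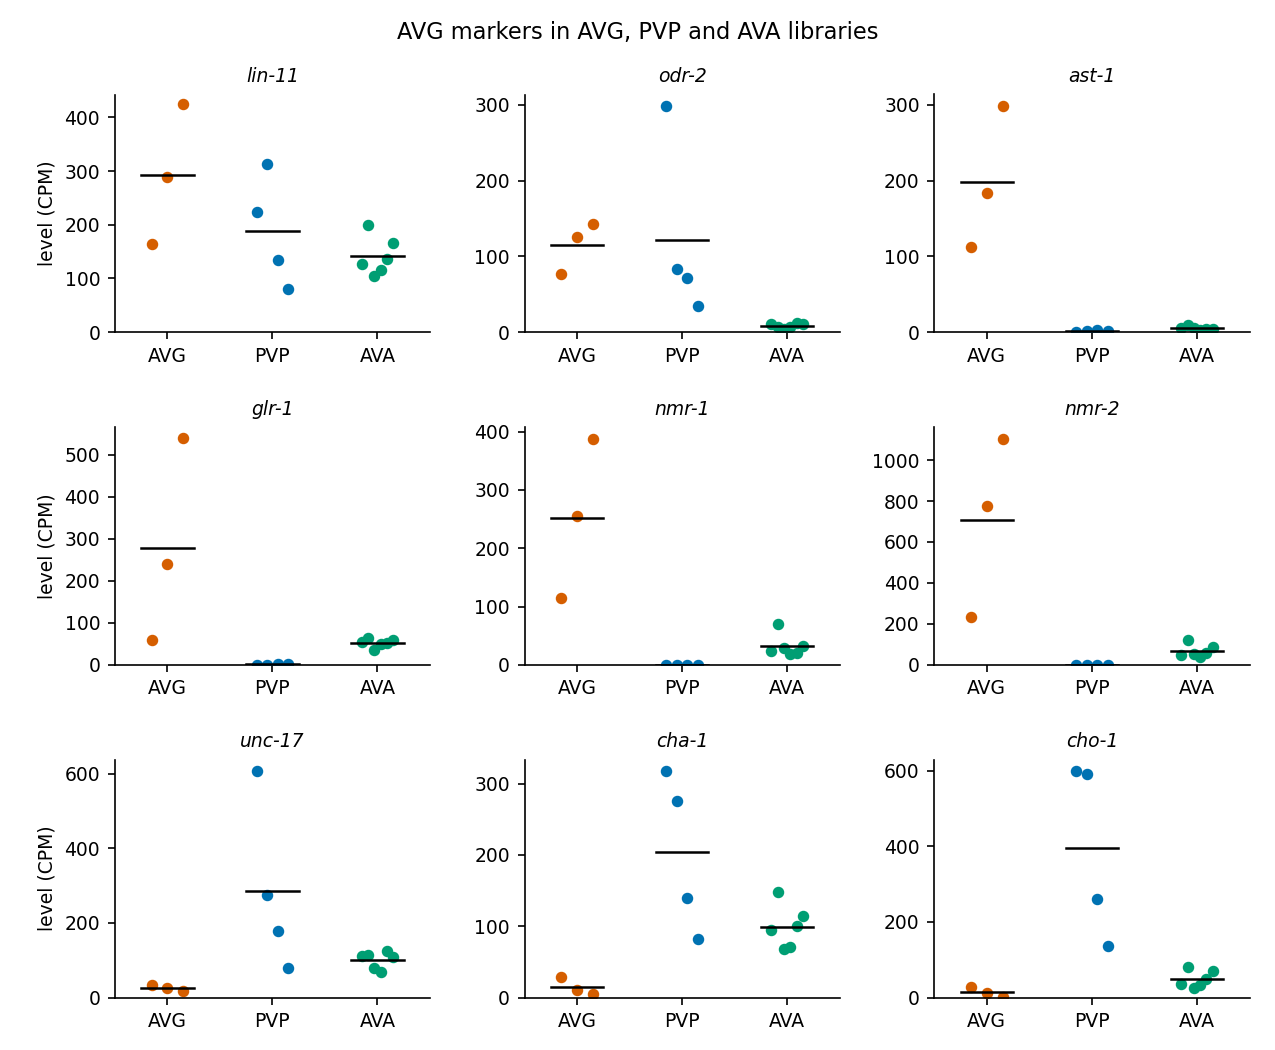
Level in CPM of the 9 AVG marker genes in each AVG, PVP and AVA library, scaled over all libraries of the series and so slightly different from the values scaled within a pair; points are libraries, bars are class means and each panel has its own axis from 0. nmr-1, nmr-2, glr-1 and ast-1 lie near 0 in PVP, lin-11 overlaps between the classes, and unc-17 and cha-1 are lower in every AVG library than in any PVP or AVA library.

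AVG and AVA both carry the kit description. Of 9194 genes tested, 1221 (13.3%) were higher and 953 (10.4%) lower in AVG by the same test. These counts come from a fit with other libraries and other genes than the PVP counts. In the fit over all 53 classes, 870 genes were higher and 709 lower in AVG than in AVA, and 857 higher and 1251 lower in AVG than in PVP. The 2 comparisons share the AVG libraries. lin-11 was at 179.3, 321 and 475 CPM in AVG and between 107.95 and 203.03 CPM in the 6 AVA libraries, which overlap AVGr43. The log2 fold change was 1.15 ± 0.30 (SE, edgeR adjusted p = 0.0167), and the call held in 7 of 9 fits with 1 library left out. odr-2 was at 83.1, 140 and 158.8 CPM in AVG and between 4.86 and 11.8 CPM in AVA (log2 fold change 3.83), and ast-1 at 121.8, 204.1 and 333 CPM in AVG and between 2.696 and 9.38 CPM in AVA (5.33).

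Of the glutamate receptor genes found in both AVG and AVA, nmr-2, nmr-1 and glr-1 were higher in AVG. nmr-2 was at 252, 862 and 1233 CPM in AVG and between 37.7 and 124 CPM in AVA, and nmr-1 at 124, 283 and 433 CPM in AVG and between 19.4 and 70.9 CPM in AVA. Their log2 fold changes were 3.50 ± 0.46 and 3.05 ± 0.44 (SE, edgeR adjusted p = 0.000228 and 0.000435). glr-1 was higher with a log2 fold change of 2.53 ± 0.48, although AVGr43 at 64.4 CPM met the highest AVA library, AVAr22. glr-2, picked after its values were seen, was at 81.5, 337 and 1047 CPM in AVG and between 153.99 and 384 CPM in AVA, and was not called (log2 fold change 0.81 ± 0.57, edgeR adjusted p = 0.362). Of 17 glutamate receptor genes tested, 7 were higher in AVG and 5 lower, beside 13.3% higher and 10.4% lower of all genes tested. The lower ones were glc-4, avr-14, glr-5, glr-4 and stg-2.

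Of 6 genes of the acetylcholine pathway tested against AVA, unc-17, cha-1 and ace-2 were called lower in AVG, and ric-3 was called higher. unc-17 was at 37.1, 27.7 and 18.7 CPM in AVG and between 72.2 and 128 CPM in AVA (log2 fold change -1.88 ± 0.30, edgeR adjusted p = 0.000825). cha-1 had a log2 fold change of -2.57 ± 0.47 (edgeR adjusted p = 0.00208), and cho-1 of -1.69 ± 0.61, which did not pass the test (edgeR adjusted p = 0.0669). The vesicular GABA transporter unc-47, outside the naming rule here, was at 18.3, 26.7 and 16.8 CPM in AVG and between 1.22 and 6.16 CPM in AVA (log2 fold change 2.98, edgeR adjusted p = 0.000616).

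Among genes called higher in AVG than in AVA, the largest differences were those of K01A6.4, F40G12.2, the chemoreceptor-family gene srt-53 and cex-1. K01A6.4 had 558 counts in AVG and 1 in AVA, a ratio of summed counts over library sizes of 1649 with an exact 95% interval of 295 to 65258. F40G12.2 had 520 counts in AVG and 4 in AVA (ratio 384, 149.2 to 1416), and srt-53 had 382 and 2 (ratio 565, 155.2 to 4678). cex-1 was at 2829, 3228 and 3460 CPM in AVG and 4.67 ± 1.19 CPM in AVA (SD, n = 6; log2 fold change 9.38 ± 0.28, edgeR adjusted p = 7.63e-09). Lower in AVG were F19B10.13, at 0 in AVG against 409 ± 180 CPM in AVA and at least 171.6-fold lower, C06E1.7, with 3 counts in AVG against 35797 counts and 2671 ± 590 CPM in AVA, a ratio of AVA over AVG of 4037 (1381 to 19577), and fip-3 and fipr-16, fungus-induced protein family genes at 0 in AVG and at least 144.1-fold and 43.4-fold lower. fip-3, fipr-16 and C06E1.7 lie side by side on chromosome III from 8589336 to 8593720, next to glr-1 at 8584163 to 8588642. Chosen after their values were seen, the homeobox gene unc-42, the nuclear receptor gene fax-1, the adhesion gene rig-3, the peptide gene flp-18 and the receptor subunit gene acr-16 were lower in AVG. rig-3 was at 12.6, 6.93 and 1.97 CPM in AVG and between 383 and 827 CPM in AVA. All 16 genes picked by fold change in the PVP and AVA comparisons were called under every alternative tried. They were picked from the same libraries as the largest differences without overlap, so this does not speak for the other calls.

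Markers of other cells were measured in the same libraries. Muscle genes summed to 8675, 8674 and 7657 CPM in AVGr43, AVGr44 and AVGr45, against a class median of 12974 CPM, and intestine genes to 1719, 1285 and 402 CPM against 847 CPM. The muscle gene unc-54 is also among 9 genes often carried on transgene constructs. Those 9 summed to 3355, 4333 and 5161 CPM in the AVG libraries, against a class median of 12159 CPM. Muscle RNA and construct RNA cannot be told apart in the muscle sum. Hypodermis genes summed to 2196, 2062 and 852 CPM in AVG against a class median of 701 CPM, with 5 class means above AVG. Of these 8 genes, 2 (25%), the collagen genes col-19 and col-140, were called higher, beside 5.68% of all genes tested. col-19 was at 659, 341 and 40.7 CPM in the AVG libraries. Without AVGr43, and in limma-voom, 1 gene of the list was called. Germline, pharynx, glia and coelomocyte lists summed to no more than 403, 330, 39.7 and 8.84 CPM in any AVG library, and none of their genes was at 0 in all of them. phat-5, on the pharynx list and like the collagen genes named after its values were seen, was called higher by edgeR at 1.12, 2.68 and 3.54 CPM in AVG against a class median of 0.273 CPM, but not by limma-voom, nor by edgeR without AVGr44 or without AVGr45. None of the germline, glia and coelomocyte genes was called. The 33 markers of other neuron classes summed to 299, 149.3 and 127 CPM against a class median of 641 CPM, and srb-6, srv-3, str-1 and str-2 were at 0. Of these markers, 2 (6.06%) were called higher in AVG by both tools, unc-47 among them, beside 5.68% of all genes tested by edgeR. Each tool called 1 marker lower, but not the same one. Pan-neuronal genes summed to 5216, 7824 and 12321 CPM in AVGr43, AVGr44 and AVGr45, against a class median of 8344 CPM. The non-neuronal sums of intestine, hypodermis, germline and pharynx were highest in AVGr43 and lowest in AVGr45, the reverse of lin-11 and most genes higher in AVG, and their part in the results was not tested.

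By similarity of class means, as r of log2(CPM + 1) over 20417 genes, the classes most like AVG were RIA at 0.925, DD at 0.9196, RMD at 0.917, VB at 0.916 and AVA at 0.916, and PVP was in place 18 at 0.903. Library depth and the kit description in the labels differ between the classes, and their part in these values was not tested. The values are given as a description. RIA stayed first for the AVG mean without each AVG library in turn and under another scaling, but not without RIAr74, when DD was first at 0.9196 and RIA followed at 0.919. By single libraries, RIA was first for AVGr44 at 0.898, OLQ for AVGr43 at 0.92999 against 0.919 for RIA, and DVC for AVGr45 at 0.877 against 0.871 for RIA. RIAr74 was also the library of another class most like AVGr44 and AVGr45, at r = 0.897 and 0.887, and its lin-11 level of 55.1 CPM lay above that of the other RIA libraries. Whether RIAr74 holds RNA of other cells was not tested.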

How the data were processed

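RNA of sorted C. elegans neurons was measured as read counts per gene. The authors deposited 1 table of whole-number counts for 46927 genes of the WormBase annotation WS289, with no normalization, per the file headers. The submitters' processing notes name STAR 2.7.7a, UMI-tools 1.1.4, Subread 2.0.3 and featureCounts; their settings, and the treatment of strand and of reads that map to several places, are not given in the sources used here. Symbols, biotypes and coordinates came from Ensembl release 115 of WBcel235; it lacked 8 of the identifiers, and for 99.85% its start and end matched the deposited ones. A further 14 columns of per-sample values match no library in the labels and were not used.

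CPM used TMM-scaled library sizes from the deposited counts, and TPM divided counts by the deposited exon length. Genes kept by filterByExpr were tested with edgeR 4.0.16 (R 4.3.3) by quasi-likelihood F-tests with trended dispersion, as AVG minus the mean of the other 52 class coefficients over all 205 libraries (3 of AVG, 202 of other classes), with Benjamini-Hochberg adjustment over all genes tested and calls at an adjusted p under 0.05. The PVP and AVA comparisons used only their own libraries. limma-voom (limma 3.58.1) and, for the pairs, DESeq2 1.42.0 were alternatives, with other scaling, no filter, another reference group, ribosomal RNA left out, and single libraries left out. The mean of class coefficients is a mean of logs: 38.9% of genes tested had a class with no count, as did 35.1% of genes called higher and 0% of those called lower. The test scripts were checked on simulated data in which classes differed only by the set changes in AVG. In the contrast with the other 52 classes, 4-fold rises were called in 74% of genes and 4-fold falls in 22%. For 8-fold changes these were 88% and 50%, and 0.146% of unchanged genes were called. No 2 AVG libraries were duplicates, since a chi-square of their counts, over genes holding 20 or more in both libraries together, was at least 14.5 times its degrees of freedom. Ratios with 1 to 4 counts in a group carry exact binomial (Clopper-Pearson) 95% intervals from scipy 1.17.1. Summaries used Python 3.11.15, numpy 2.4.6 and pandas 2.3.3, and plots matplotlib 3.10.9.

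The members, the lists and the naming rule were chosen with earlier results of these data known. Named genes were all members of the marker and acetylcholine lists; the non-overlapping genes of the 15 largest fold changes among those above every other library; in each other list up to 4 genes called higher by both tools with a mean of at least 10 CPM and the largest fall called by both; the 5 largest falls; the 4 largest differences in each direction of each pair, with no overlap; and the 10 genes with the highest TPM. Others are said to have been chosen after their values were seen. Of the entries in the lists, efn-1 and nca-1 were not found under these symbols.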

Additional observations from a re-analysis of the deposited data

Results flagged for a closer look

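In 67 groups of 4 to 10 libraries, 1 for each gene and class, the highest or lowest library was compared with its nearest neighbour, and in 8 groups the gap was large against the range of the group; chance flags about 1 in 20 groups. odr-2 stood at 270 CPM in PVPr2, and the next PVP library at 63.97 CPM. nmr-1 stood at 70.9 CPM in AVAr22, and the next AVA library at 33.8 CPM. lin-11 was high in RIAr74, at 55.1 CPM beside 17.05 CPM in the next RIA library, and in SIAr241, at 33.5 CPM beside 15.4 CPM in the next SIA library, and low in AIMr190, at 7.31 CPM beside 19.6 CPM in the next AIM library. nmr-2 at 0.199 CPM in PVPr4, K01A6.4 at 0.560 CPM in AVAr21 and srt-53 at 1.12 CPM in AVAr21 were marked because every other library of their class held no count; these values rest on 1 to 2 counts. The AVG libraries, at 3, were too few for this check.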

How the results depend on the processing

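The share of genes called higher in AVG was 5.68% (1160 genes), and the count stayed within 1.5 times of that with RLE scaling (1362), with no filter (1484), with ribosomal RNA left out (1221), with only the classes that carry the kit description (1213) and with limma-voom (899). It was 1.27% (260) with all other libraries as 1 group, and 3.21% to 5.48% with 1 AVG library left out. The share of lower genes, 2.59% (529), was 0.693% (266) with no filter, 1.56% (318) with limma-voom and 0.157% (32) with all other libraries as 1 group, and 0.563% to 2.40% with 1 AVG library left out. The median log2 fold change of all genes, -0.33, was -0.76 with the other libraries as 1 group and -0.79 without AVGr43. The 16 genes above every other library became 17 to 55 with 1 AVG library left out. Against PVP, DESeq2 gave 7.65% (804) higher and 7.84% (824) lower genes, the fit over all 53 classes 4.20% (857) and 6.12% (1251) of a larger set of genes, and no filter 3.40% (799) lower. With 1 library left out shares ran from 2.18% to 5.48% higher and from 1.24% to 7.06% lower. Against AVA they ran from 8.47% to 16.7% higher and from 7.12% to 12.7% lower, and the counts under every other alternative stayed within 1.5 times. Of 639 alternative values for 71 named genes, 69 kept direction and lost the call, 1 gained it, and 1, unc-47 with the other libraries as 1 group, turned to -0.62, a setting that accounts for 35 of the 69. ace-1, which was not called, changed sign to 0.23 without AVGr43 and to 0.02 with limma-voom. All the rest kept direction and side of the threshold. The causes were not tested. Scaling and left-out libraries for similarity were added after seeing the data. RIA was first, at r of 0.903 to 0.928, except without RIAr74, when DD was. Without RIAr74, also tried after seeing the data, no gene joined the 16 above every other library, and none of them could be lost by that step. No paired analysis was possible because no 2 classes share a library number. Depth limits what AVG can show of genes under about 2.15 CPM, the mean limit of its libraries.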

Other observations

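Genes of tRNAs, snoRNAs and snRNAs were called higher in AVG at larger shares than the 5.68% of all genes tested. piRNA genes, at 6.64%, were near that share, and most of the 1160 higher calls were protein-coding genes. With edgeR's quasi-likelihood test, 44 of the tRNA genes tested (26.8%) were called higher and 0 lower, beside 887 of 17208 protein-coding genes (5.15%). The summed level of tRNA genes was 259, 463 and 529 CPM in AVGr43, AVGr44 and AVGr45, against a class median of 142.7 CPM. For this sum 6 class means lay above AVG, with RIM highest at 1050 CPM. With AVGr44 left out 22 tRNA genes were called, with AVGr45 left out 17, and with all other libraries as 1 group 7. Of 200 snoRNA genes 30 (15%) were called higher, 17 by limma-voom, 4 without AVGr44, 11 without AVGr45 and 2 with all other libraries as 1 group. For the summed snoRNA level, 11 class means lay above AVG. snRNA genes, of which 11 of 70 (15.7%) were called higher, 7 without AVGr45 and 1 with all other libraries as 1 group, summed to 9356, 20977 and 24073 CPM in the AVG libraries against a class median of 4197 CPM, and ASEL at 22359 CPM was the only class whose mean lay above AVG. Many of these genes have near-identical copies, and how the counting treated reads that map to several places is not given in the sources used here, so single members are uncertain.

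cex-1 and nmr-1, both higher in AVG with RIM as the next class, lie beside each other on chromosome II and point away from each other, with 1074 bases between them that hold 2 annotated non-coding RNA genes. The pair was noticed after the values were seen, and no relation between them was tested.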
